A study of Caenorhabditis elegans with 4 samples.

Results

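The basic helix-loop-helix (bHLH) genes of *C. elegans* were examined in wild-type cells sorted for the *Pacr-2*::*gfp* reporter. A gene was taken as a member where its name was *hlh* with a number, or where it was 1 of a further set of genes that encode proteins with the same fold, such as *hif-1*, *mxl-1* and *lin-32*. This rule gave 41 genes of the 41560 gene symbols in the deposited outputs, and all 41 are annotated as protein-coding. Each had a single row in the outputs. The data were 2 RNA-seq libraries (n = 2 replicates) of strain CZ631, which carries the *juIs14* *Pacr-2*::*gfp* reporter and no *acr-2* mutation, from synchronized young adults grown for 72 hours at 20°C. Cells from many pooled animals were dissociated and sorted by FACS for GFP. The sort does not hold only cholinergic motoneurons of the A and B types, since head and tail neurons of unknown identity carry GFP from this reporter too. The study has 4 samples, and the 2 of strain CZ5808, which carries *acr-2(gf)* with the same reporter, were not analysed here, so that all values below describe 1 condition. No comparison between conditions was made and no test was run.

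bHLH proteins bind DNA through a basic region that contacts E-box motifs (CANNTG), and they dimerize through the helix-loop-helix. The E protein HLH-2 is the common partner of many tissue-specific members, among them the proneural factors that start neuronal fates in development. Other members carry a second dimerization surface. The Max network, HLH-30, HLH-11 and SBP-1 have a leucine zipper or a related extension, and HIF-1, AHR-1 and AHA-1 have PAS domains. Several of these act in metabolism, autophagy or the response to low oxygen in many adult tissues, neurons included.

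Values are FPKM, read fragments scaled to transcript length and library size, as the authors computed them with Cufflinks for each gene and library. Because of the scaling to length, levels can be set side by side between genes. Library 1 and library 2 are numbered as the deposited outputs are, and which of the labelled replicates each is was not given. Expression was called for a gene at more than 10 FPKM in each of the libraries, the limit of the study. In the deposited values 6552 protein-coding genes passed it, far more than the transcripts that the paper counts as expressed. The calls here are therefore not the paper's expressed set, and the reason for the difference was not tested. Coordinates are those of the outputs, in build ce10, with starts counted from 1.

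The libraries showed markers of the labelled cell type together with markers of other tissues. From overlaps with published gene lists, the paper proposes that its samples held little non-neuronal tissue and few GABAergic transcripts. Those overlaps were not computed here, and the marker lists below are small. All 4 core cholinergic markers, all 6 motoneuron markers and all 8 pan-neuronal markers passed 10 FPKM in both libraries. Of the body-wall muscle markers 7 of 8 passed, of the intestinal ones 4 of 6, of the germline ones 5 of 6, of the GABAergic ones 3 of 5, of the hypodermal ones 2 of 6, of the pharyngeal gland ones 1 of 6, and of the glial ones 0 of 6. Among all protein-coding genes 33.9% passed, so the hypodermal share was near the background and the pharyngeal gland and glial shares were under it. A share does not give the level, and the hypodermal marker *col-19* had 2214 FPKM in library 1 and 2652 FPKM in library 2. The lowest hypodermal marker, *bli-1*, was listed at 0 in library 1 and had 0.173 FPKM in library 2. Fewer cells of a type and less RNA per cell cannot be told apart in these bulk samples. Read counts were not analysed here, but the width of the Cufflinks interval gives the number of reads whose counting error alone would produce it, called implied reads below. For the same gene, implied reads per FPKM were 1.22-fold higher in library 2 than in library 1 (median of 8341 protein-coding genes, quartiles 1.20 and 1.23), which places library 2 slightly deeper.

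The bHLH genes ranged from a few at high levels to many near or at 0, with others in between. Of the 41 genes, 9 passed 10 FPKM in both libraries, beside 33.9% of the 19355 protein-coding genes. The 9 were *hif-1*, *mdl-1*, *hlh-30*, *mxl-3*, *hlh-11*, *mxl-1*, *mxl-2*, *hlh-8* and *mml-1*. The median of the mean FPKM was 0.880 over all 41 bHLH genes and 4.23 over the protein-coding genes. Among the expressed genes alone the order was the other way round, with a median of 117 FPKM for the 9 bHLH genes and 45.3 FPKM for the protein-coding genes. A further 2 bHLH genes passed in library 1 only, *hlh-17* and *hlh-13*, beside 3.03% of the protein-coding genes. In library 2 only, *aha-1* and *hlh-32* passed, beside 6.19%. Just inside the limit lay *mml-1*, and just outside lay *hlh-17*, at 9.49 FPKM in the library where it was lower, and *hlh-31*, at 9.64 FPKM in the library where it was higher. Listed at 0 in both libraries were 9 of the 41 genes, beside 19.5% of the protein-coding genes.

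**Figure D1:**
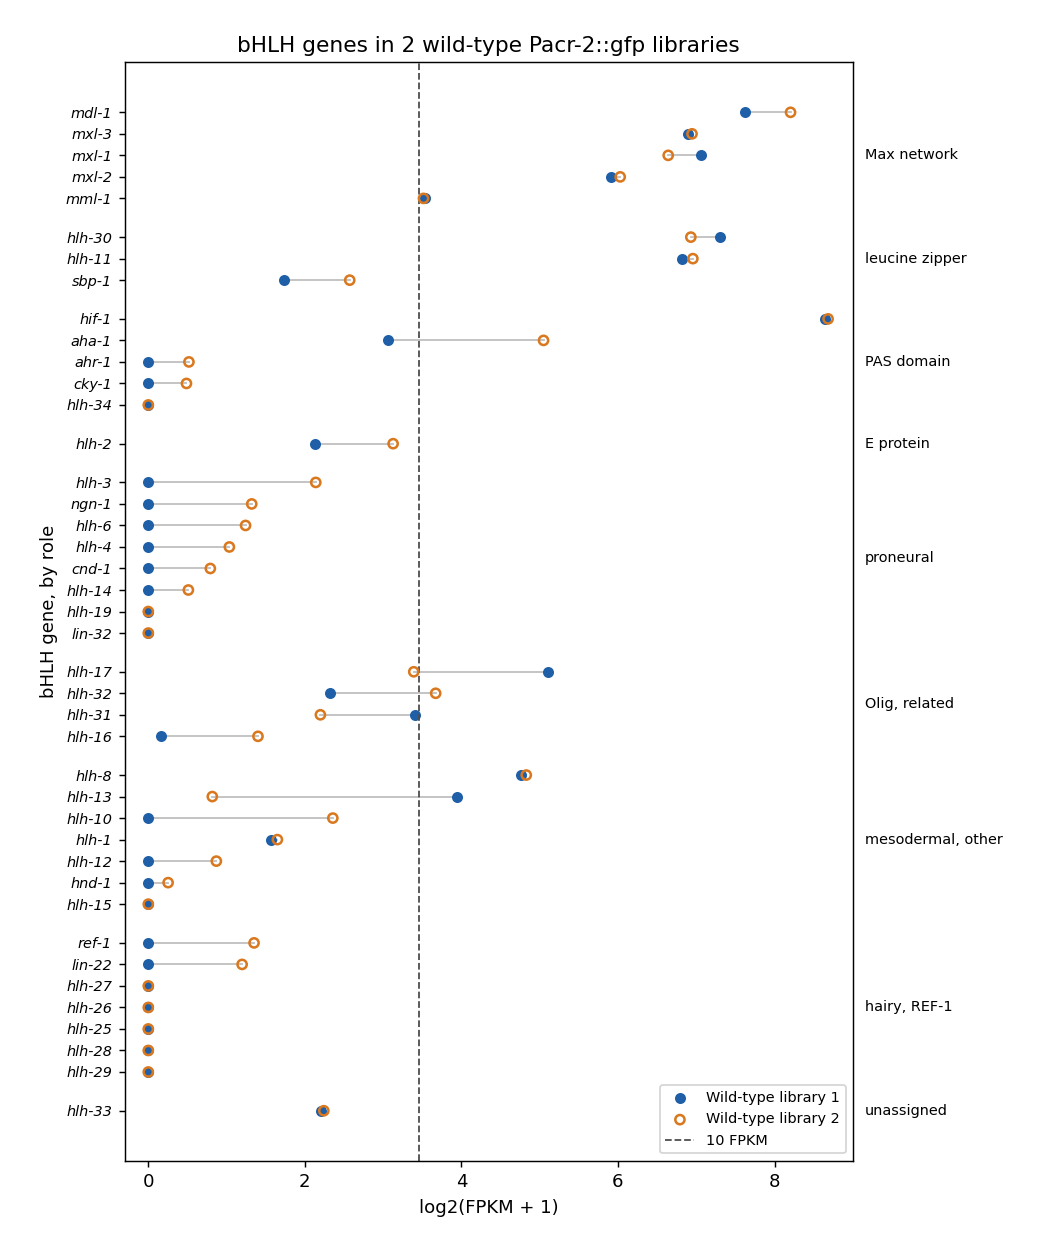
FPKM of each of the 41 bHLH genes on a log2(FPKM + 1) axis in library 1 (filled) and library 2 (open), grouped by role, with the limit of 10 FPKM as a dashed line. All 5 genes of the Max network lie past the line in both libraries, while all 8 proneural genes lie at 0 in library 1.

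The Max network is a group of bHLH leucine zipper proteins built around Max-like partners, with Mad-type repressors and Mondo-type glucose sensors. All 5 of its genes passed the limit, beside 33.9% of the protein-coding genes. The Mad homolog *mdl-1* (WBGene00003163, X:6742447-6743630) had 196 FPKM in library 1 and 294 FPKM in library 2, a mean of 245 ± 69.4 FPKM (SD, n = 2). It was 1.501-fold higher in library 2, where its lower confidence bound of 287 FPKM lay above the value of library 1. The Max homolog *mxl-1* (WBGene00003509, V:11244821-11245825), the dimer partner of MDL-1, moved the other way, from 132 FPKM in library 1 to 98.9 FPKM in library 2, with a mean of 116 ± 23.8 FPKM (SD, n = 2). The transcript of the Mad homolog was thus 1.48-fold as abundant as that of its partner in library 1 and 2.97-fold in library 2.

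The second dimer of the network pairs the Mlx homolog MXL-2 with the Mondo homolog MML-1, which act together in lifespan and in the response to nutrients. *mxl-2* (WBGene00003510, III:187021-188123) had 59.0 FPKM in library 1 and 64.3 FPKM in library 2, a mean of 61.6 ± 3.75 FPKM (SD, n = 2). *mml-1* (WBGene00003378, III:7370367-7374660) had 10.5 and 10.4 FPKM, and its lower bounds of 9.76 and 9.71 FPKM fell under the limit. The ratio of *mxl-2* to *mml-1* was 5.60 in library 1 and 6.16 in library 2, so *mxl-2* was the more abundant transcript of the pair in both. *mxl-3* (WBGene00003511, X:13349856-13350721), a Max-like gene whose product represses lysosomal lipase genes in fed worms, had 118 FPKM in library 1 and 122 FPKM in library 2, a mean of 120.1 ± 3.11 FPKM (SD, n = 2).

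Of the other 3 leucine zipper genes, *hlh-30* and *hlh-11* were among the highest bHLH genes and *sbp-1* stayed under the limit. *hlh-30* (WBGene00020930, IV:4015753-4028080), the TFEB homolog that activates autophagy and lysosomal genes, had 157 FPKM in library 1 and 121 FPKM in library 2, a mean of 139 ± 25.7 FPKM (SD, n = 2). It ranked above 93.4% of the protein-coding genes in library 1 and above 91.9% in library 2, and it has 4 annotated start sites in the outputs, the most of any bHLH gene. *hlh-11* (WBGene00001955, III:9622414-9625829), the homolog of the mammalian factor AP-4, had 112 FPKM and 123 FPKM, a mean of 117 ± 8.21 FPKM (SD, n = 2). *sbp-1* (WBGene00004735, III:11428318-11442465), the SREBP homolog that drives fatty acid synthesis, had 2.33 FPKM in library 1 and 4.95 FPKM in library 2. Its lower bounds were 2.04 and 4.57 FPKM, so that the reads placed it clearly above 0 in both libraries, and the lower bound of library 2 lay above the value of library 1.

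Genes that HLH-30 activates or that carry out autophagy were mostly expressed. Of 21 such genes 16 passed the limit, beside 33.9% of all protein-coding genes. The median of the 21 was 47.7 FPKM, from *lgg-1*, the ubiquitin-like protein that coats autophagosomes, at 3261 ± 464 FPKM to *lipl-3* at 2.54 ± 3.08 FPKM (SD, n = 2 for each). The autophagy receptor gene *sqst-1* had 182 ± 27.3 FPKM (SD, n = 2). The lysosomal lipase genes *lipl-1* and *lipl-3*, which MXL-3 represses and HLH-30 activates in the intestine, stayed under 10 FPKM. *lipl-1* had 9.32 FPKM in library 1 and 0.722 FPKM in library 2, and *lipl-3* had 4.72 and 0.362 FPKM. Of the 6 intestinal markers 5 were also higher in library 1, while *elt-2* was higher in library 2, at 5.36 FPKM beside 1.68 FPKM. Their summed level, carried by *mtl-2*, *asp-1* and *vit-2*, was 4558 FPKM in library 1 and 2242 FPKM in library 2, and their part in the lipase values was not tested. The list shares the protease gene *asp-1* with the intestinal markers. Of 8 genes for nuclear export and the mTOR pathway, which hold TFEB-type factors in the cytoplasm, 6 passed, beside the same 33.9%. *xpo-1*, the exportin of HLH-30, had 78.1 ± 6.82 FPKM. The highest of the 8 was the folliculin gene *flcn-1* at 141 ± 9.35 FPKM, and the lowest was the Raptor gene *daf-15* at 5.10 ± 2.42 FPKM (SD, n = 2 for each).

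The genes around SBP-1 had higher mean levels than *sbp-1* itself, although *nhr-80*, at 3.95 FPKM in library 2, was under *sbp-1* there. Of 6 genes for co-factors and other regulators of fat, with a median of 74.7 FPKM, 4 passed the limit, beside 33.9% of all protein-coding genes. The Mediator subunit gene *mdt-15*, whose product SBP-1 needs for its targets, had 80.3 ± 10.6 FPKM and the nuclear receptor gene *nhr-49* had 112 ± 3.58 FPKM (SD, n = 2 for each). The highest was the S-adenosylmethionine synthetase gene *sams-1* at 136 ± 85.6 FPKM and the lowest *nhr-80* at 5.65 ± 2.41 FPKM (SD, n = 2 for each). *scp-1*, the homolog of the protein that escorts SREBP to the Golgi, had 3.74 FPKM in library 1 and 13.3 FPKM in library 2, higher in library 2 as *sbp-1* was. Of 10 fatty acid synthesis genes 8 passed, beside the same 33.9%. The median of the 10 was 79.1 FPKM, from the desaturase gene *fat-2* at 1028 ± 241 FPKM to the desaturase gene *fat-5* at 6.44 ± 4.76 FPKM (SD, n = 2 for each). These enzymes are strongly expressed in intestine, whose markers were also present here, and the share of each tissue in them was not tested.

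**Figure D2:**
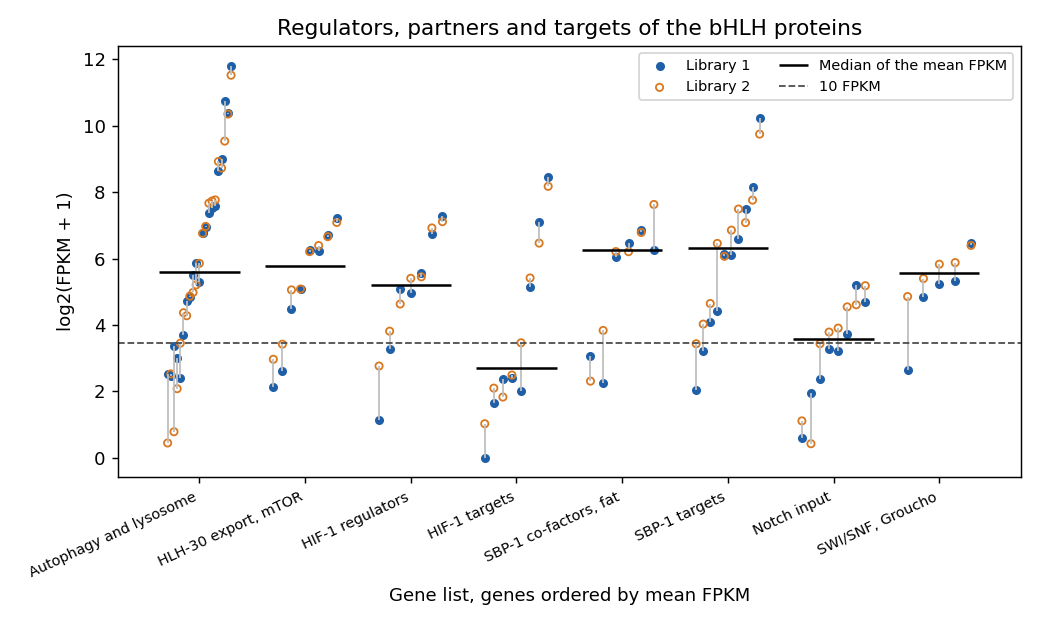
FPKM on a log2(FPKM + 1) axis in library 1 (filled) and library 2 (open) for the genes of 8 lists of regulators, partners and targets, each list ordered by mean FPKM, with the median of the list as a bar and the limit of 10 FPKM as a dashed line. The median lies above the line in 7 of the lists and under it for the HIF-1 targets, at 5.49 FPKM.

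*hif-1* had the highest level of all 41 bHLH genes, and its dimer partner was far lower. HIF-1 is the oxygen-regulated PAS protein, which is hydroxylated by EGL-9 and degraded through VHL-1 when oxygen is present, and which binds DNA with the ARNT homolog AHA-1. *hif-1* (WBGene00001851, V:20780471-20784830) had 399 FPKM in library 1 and 410.4 FPKM in library 2, a mean of 405 ± 8.22 FPKM (SD, n = 2). It ranked above 97.0% of the protein-coding genes in each library. *aha-1* (WBGene00000095, I:10194149-10196980) had 7.33 FPKM in library 1 and 32.1 FPKM in library 2, a 4.38-fold difference, and the lower bound in library 2 was 30.03 FPKM. The ratio of *hif-1* to *aha-1* was 54.4 in library 1 and 12.8 in library 2, so that its size rested on *aha-1* and its direction was shared by both libraries.

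The other PAS genes were near 0. *ahr-1*, the aryl hydrocarbon receptor homolog, which specifies certain sensory neurons and also dimerizes with AHA-1, was listed at 0 in library 1 and had 0.433 FPKM in library 2. *cky-1*, which is related to the activity-dependent mammalian factor NPAS4, was listed at 0 in library 1 and had 0.402 FPKM in library 2, with a lower bound of 0.251 FPKM. *hlh-34* was listed at 0 in both libraries. Only *hif-1* of these 5 genes passed the limit, beside 33.9% of the protein-coding genes.

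Of the 7 genes that control HIF-1, with a median of 35.9 FPKM, 5 passed the limit, beside 33.9% of all protein-coding genes. *egl-9*, the prolyl hydroxylase, had 44.6 ± 2.79 FPKM, and *cysl-1*, the hydrogen sulfide sensor that inhibits EGL-9, was the highest at 146 ± 12.1 FPKM (SD, n = 2 for each). *vhl-1*, the ubiquitin ligase subunit, had 8.77 FPKM in library 1 and 13.05 FPKM in library 2. *rhy-1*, which restrains HIF-1 together with EGL-9, was the lowest, at 1.22 and 5.79 FPKM. Of 8 known HIF-1 targets 3 passed, with a median of 5.49 FPKM. Those 3 were the carbonic anhydrase gene *cah-4* at 319 ± 44.2 FPKM, F22B5.4 at 112 ± 35.3 FPKM and the cysteine synthase-like gene *cysl-2* at 38.03 ± 5.11 FPKM (SD, n = 2 for each). The nuclear receptor gene *nhr-57*, a widely used reporter of HIF-1 activity, had 2.15 FPKM in library 1 and 3.28 FPKM in library 2, and *gst-19*, the lowest, was listed at 0 in library 1 and had 1.04 FPKM in library 2. The share of the targets that passed was close to the 33.9% of all protein-coding genes.

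The class I partner *hlh-2* (WBGene00001949, I:7191238-7193905) was present at a low level. It had 3.37 FPKM in library 1 and 7.74 FPKM in library 2, with lower bounds of 2.72 and 6.84 FPKM. HLH-2 is required for the proneural factors, and none of their 8 genes passed the limit, beside 33.9% of the protein-coding genes. All 8 were listed at 0 in library 1, where 12311 of the 19355 protein-coding genes were above 0. In library 2, 6 of the 8 were above 0, beside 15343 of the 19355, so this share was near the background. The highest was the achaete-scute homolog *hlh-3* (WBGene00001950, II:9086550-9087553), which acts in ventral cord neuroblasts and in the HSN neurons, at 3.41 FPKM with a lower bound of 2.40 FPKM. The neurogenin homolog *ngn-1* had 1.499 FPKM, *hlh-6*, which specifies the pharyngeal glands, had 1.37 FPKM, and *hlh-4*, which is needed for the ADL sensory neurons, had 1.05 FPKM. The NeuroD homolog *cnd-1*, which acts early in the lineages of motoneurons, had 0.732 FPKM, and *hlh-14*, which acts in the neuroblast of the PVQ and HSN neurons, had 0.426 FPKM. The Atonal homolog *lin-32* and the achaete-scute-like gene *hlh-19* were listed at 0 in both libraries. The marker genes of the pharyngeal glands, where *hlh-6* acts, had summed levels of 105 FPKM in library 1 and 63.7 FPKM in library 2. The highest of them was *phat-3*, at 56.7 and 44.1 FPKM, and the lowest was *phat-1*, at 0 in both.

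The Olig-related genes differed in order between the libraries. *hlh-17* (WBGene00001961, IV:16254839-16256112), known from the glia that ensheath the CEP neurons, had 33.4 FPKM in library 1 and 9.49 FPKM in library 2. *hlh-31* (WBGene00009540, IV:16257636-16259385) had 9.64 and 3.59 FPKM, while *hlh-32* (WBGene00013665, IV:16132467-16134144) had 3.99 and 11.7 FPKM. In each of the 3 genes the lower bound of the higher library lay above the value of the lower one. *hlh-17* thus made up 71.0% of their summed level in library 1 and 38.2% in library 2, whereas *hlh-32* made up 8.49% and 47.3%. The 3 genes are close paralogs that could share reads, and *hlh-17* and *hlh-31* lie within 4547 bp of each other's far ends, so their single values are uncertain. Their sum, which depends less on how reads were divided among them, was 47.1 FPKM in library 1 and 24.8 FPKM in library 2, a ratio of 1.90. The 6 glial markers had summed levels of 16.4 FPKM in library 1 and 6.89 FPKM in library 2, a fall that rested on *fig-1* and *vap-1*, whereas 3 of the 6, *mam-5*, *ram-5* and *ptr-10*, were higher in library 2. None of the 6 passed 10 FPKM in both libraries, and *ptr-10* and *ram-5* were listed at 0 in library 1. Their part in the level of the Olig-related genes was not tested. *hlh-16*, which acts in the AIY interneuron lineage, had 0.118 FPKM in library 1, with a lower bound of 0, and 1.64 FPKM in library 2.

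Among the 7 genes of mesoderm and other tissues only the Twist homolog passed, beside 33.9% of the protein-coding genes. *hlh-8* (WBGene00001953, X:8116589-8120057), known from the postembryonic mesodermal lineage and the enteric muscles, had 26.03 FPKM in library 1 and 27.4 FPKM in library 2, a mean of 26.7 ± 0.979 FPKM (SD, n = 2). It exceeded its dimer partner *hlh-2* 7.73-fold in library 1 and 3.54-fold in library 2. The MyoD homolog *hlh-1* (WBGene00001948, II:4519066-4522434), the myogenic factor of body-wall muscle, had 1.95 and 2.14 FPKM, with lower bounds of 1.39 and 1.61 FPKM. The 8 body-wall muscle markers had summed levels of 7131 FPKM in library 1 and 6942 FPKM in library 2. The sums were uneven, since *pat-10* alone had 3693 and 3957 FPKM, while the myosin gene *myo-3* had 8.43 and 13.6 FPKM. Some muscle transcripts were thus abundant where this muscle regulator was low but above 0. Whether *hlh-1* and *hlh-8* came from muscle RNA was not tested.

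Of the bHLH genes above 0 in both libraries, the largest fold difference was that of *hlh-13* (WBGene00001957, X:4249301-4250630), the PTF1A homolog. It had 14.4 FPKM in library 1, from 124 implied reads, and 0.763 FPKM in library 2, from 8.00 implied reads, an 18.9-fold difference. The opposite was seen for *hlh-10*, which was listed at 0 in library 1 and had 4.12 FPKM in library 2, from 71.5 implied reads. *hlh-12*, which acts with HLH-2 in migration of the gonad, was listed at 0 and had 0.827 FPKM, and the Hand homolog *hnd-1* was listed at 0 and had 0.192 FPKM with a lower bound of 0. *hlh-15*, an NHLH homolog, was listed at 0 in both libraries. *hlh-33*, to which no role is given here, was repeatable at 3.61 and 3.73 FPKM.

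The hairy and REF-1 family genes, of which several are direct targets of Notch signaling in the embryo, were the lowest group. None of the 7 passed the limit, beside 33.9% of the protein-coding genes, and 5 were listed at 0 in both libraries, beside 19.5%. The 5 were the REF-1 family genes *hlh-25*, *hlh-26* and *hlh-27*, which lie within 7231 bp on chromosome II, and *hlh-28* and *hlh-29*, which lie within 4061 bp on the X chromosome. *hlh-25* and *hlh-27* span 910 bp each, and *hlh-28* and *hlh-29* span 821 bp each. They are close copies, and reads that map to both copies could make these values uncertain. *ref-1* was listed at 0 in library 1 and had 1.55 FPKM in library 2 from 58.9 implied reads, and *lin-22*, the hairy homolog that patterns the epidermis, was listed at 0 and had 1.30 FPKM. Of 8 Notch pathway genes, with a median of 10.9 FPKM, 3 passed the limit. This share was close to the 33.9% of all protein-coding genes, but the count moved under other limits, as given below. The highest was the ADAM protease gene *sup-17* at 29.96 ± 7.54 FPKM, and the lowest was the receptor gene *lin-12* at 0.839 ± 0.453 FPKM (SD, n = 2 for each).

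The ratio between the libraries was computed for each bHLH gene. The log2 ratio of library 2 over library 1, on the log2(FPKM + 1) scale and centred on its median of 0.13 over all expressed protein-coding genes, had a median size of 0.09 for the 9 expressed bHLH genes and of 0.39 for the expressed protein-coding genes. Because a gene had to pass 10 FPKM in both libraries to enter this set, genes that differed strongly near the limit, such as *aha-1*, *hlh-17* and *hlh-13*, were left out of it. The bHLH genes in the set were also higher than the protein-coding genes, as given above, and no match on level was made. Of the 17 bHLH genes over 1 FPKM in both libraries, 4 differed more than 2-fold (23.5%), beside 20.7% of the protein-coding genes over that level, so the share was near the background. The limit of 1 FPKM left out *hlh-13*, *hlh-10*, *hlh-3*, *ref-1*, *ngn-1*, *hlh-6*, *hlh-16* and *lin-22*. These also differed more than 2-fold on this scale, and only *hlh-13* among them was higher in library 1. Higher in library 2 were *aha-1* and *hlh-32*, 2 of the 17, beside 9.79% of the protein-coding genes. Higher in library 1 were *hlh-17* and *hlh-31*, also 2 of the 17, beside 10.9%.

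**Figure D3:**
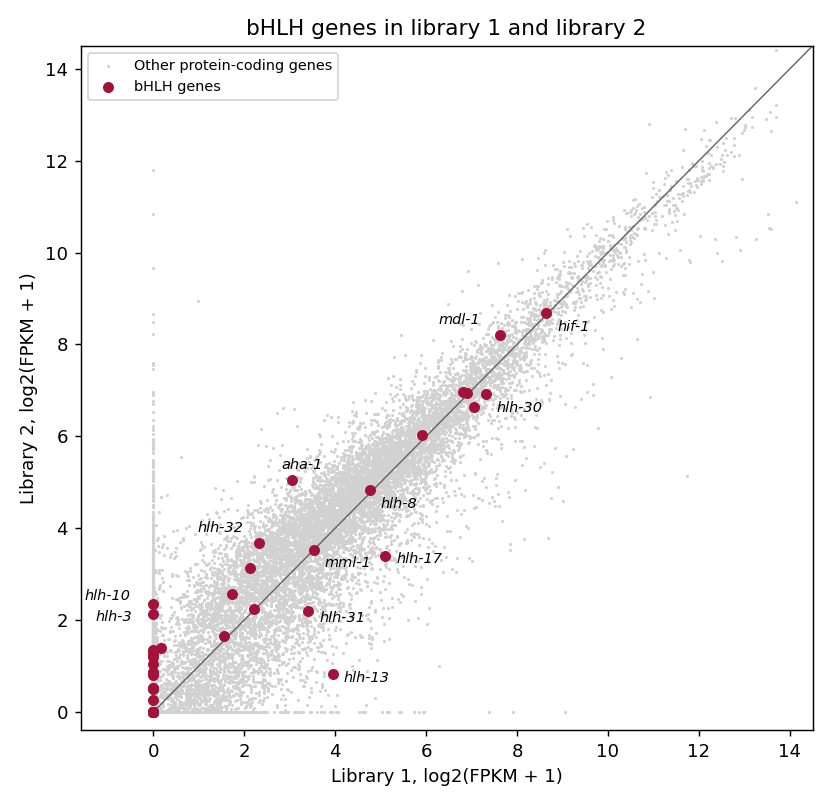
FPKM in library 1 (x axis) against library 2 (y axis), both as log2(FPKM + 1), for the 41 bHLH genes (red) and the other protein-coding genes (grey), with the line of equal values. The high bHLH genes lie on or near the line, *aha-1* and *hlh-13* lie off it on opposite sides, and a column of bHLH genes stands at 0 in library 1.

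Genes missing from a single library were on the side of library 1. Listed at 0 in library 1 but not in library 2 were 13 bHLH genes (31.7%), beside 16.9% of the protein-coding genes. The reverse held for 0 bHLH genes and for 1.22% of the protein-coding genes. The lower bound was above 0 in both libraries for 18 bHLH genes (43.9%), beside 60.1% of the protein-coding genes, and without library 1 it was above 0 for 31. The libraries were also set against each other at a given number of implied reads. Of the protein-coding genes with 20 to 100 implied reads in library 2, 37.8% were listed at 0 in library 1, and of those with 20 to 100 in library 1, 6.62% were listed at 0 in library 2. Of the 11 bHLH genes in that range in library 2, 7 were listed at 0 in library 1. No protein-coding gene above 1000 implied reads in one library was listed at 0 in the other. A value of 0 for a low bHLH gene in library 1 therefore does not show that its transcript was absent from the cells, and the cause of the difference was not tested.

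**Figure D4:**
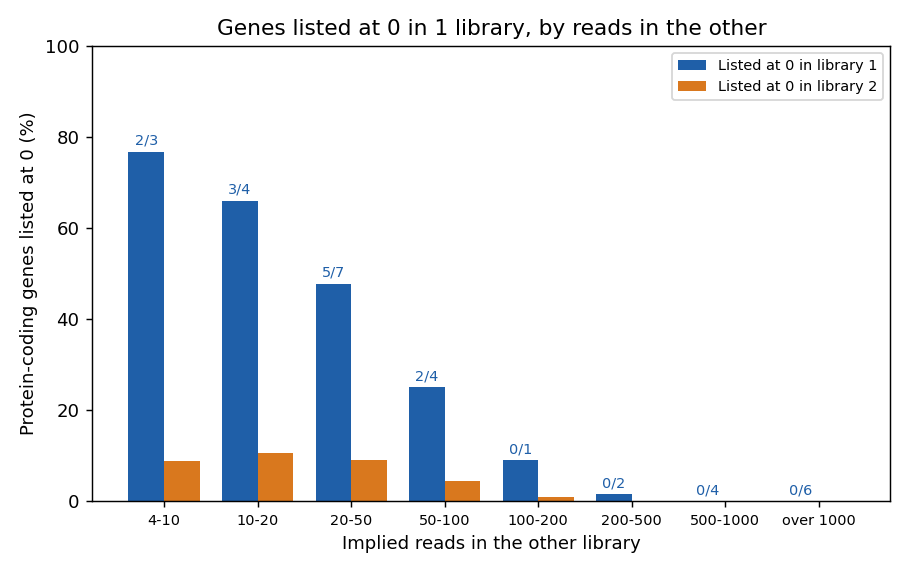
Percent of protein-coding genes listed at 0 in library 1 (blue) or library 2 (orange), by the number of implied reads in the other library, with the number of bHLH genes at 0 in library 1 of those in each range printed above the blue bars. The blue bars fall from 76.8% for 4 to 10 reads to 25.1% for 50 to 100 reads, and the orange bars stay at or under 10.7%.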

How the data were processed

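Single-end TruSeq libraries were sequenced on a HiSeq4000 by the authors, who mapped the reads with TopHat and computed gene FPKM values and confidence bounds with Cufflinks in Galaxy. The deposited FPKM values and the deposited lower bounds of the 95% interval were used, and 2 further columns of values, the upper bounds, were not. The submitters' processing notes name the build ce10. Versions and annotation were not given in the sources used here.

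The outputs were joined on locus and start sites, and 11 gene names stored as dates were taken from the other library. Of several rows of a symbol, the one with the highest mean FPKM was kept. Biotypes came from RefSeq (WBcel235). Implied reads are the square of 2 × FPKM over the distance from FPKM to the lower bound, where that bound is above 0. Between 5 and 30 they were within 0.05 of a whole number for 47.7% of genes in library 1 and 61.7% in library 2, so they are approximate and cover counting error only. Ratios used a pseudocount of 1. Whether the libraries came from separate cultures is not stated.

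The members and lists were chosen with earlier results of these data known. All members may be named, and of each other list the highest and lowest gene and a fixed set of partners. *asp-1*, *lipl-1*, *elt-2*, *vit-2*, *vap-1*, *mam-5*, *ram-5*, F22B5.4, *cysl-2*, *nhr-57* and *unc-37* lie outside that rule and were chosen after their values were seen. The 10 marker lists hold 61 genes. Values were computed with Python 3.11.15, numpy 2.4.6 and pandas 2.3.3. The implied reads, the depth ratio and the 2-fold calls were also run on simulated data. The simulated bounds were built with the formula that defines implied reads, so that run could not test how well real Cufflinks bounds give reads. No sequences of these genes were used here.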

Additional observations from a re-analysis of the deposited data

How the results depend on the processing

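No paired analysis was possible because only libraries of 1 condition were analysed. The 9 expressed bHLH genes became 17 at a limit of 1 FPKM, and between 8 and 11 passed under the other limits, scalings and definitions of expression and with either library left out. Over members above 0 in both libraries, the median level was 19.7 FPKM in place of 0.880, since the genes at 0 were removed. With 1 library left out, it ranged from 0 to 1.55 FPKM. The count of bHLH genes with a lower bound above 0 ranged from 18 to 31 with 1 library left out. The 4 genes that differed over 2-fold became 5 with a pseudocount of 0.1 and 5 without centring. They became 2 with a pseudocount of 5, and 0 among genes over 10 FPKM in both libraries. The 49 expressed genes of the 73 on the pathway and target lists stayed within 1.5 times that number under each alternative. Of the single lists, 2 did not. The Notch count of 3 became 6 at a limit of 1 FPKM. It became 5 at a limit of 5 FPKM, for a mean over 10 FPKM, and without library 1. The HIF-1 target count of 3 became 7 at a limit of 1 FPKM. Of the 32 bHLH genes above 0 in a library, the mean level moved by more than its SD for 0 after upper-quartile scaling. On the TPM scale it did so for 11. TPM is FPKM times 0.547 in library 1 and 0.601 in library 2, so every level is lower in that unit. The 11 therefore reflect the change of unit and do not measure how far the levels depend on processing. Values of bHLH genes above 0 and under 1 FPKM in library 2 rested on 8.00 to 28.2 implied reads where these could be computed.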

Other observations

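Of 5 genes for co-factors that bHLH repressors and activators recruit, 4 passed 10 FPKM in both libraries, beside 33.9% of all protein-coding genes. The median of the 5 was 46.1 FPKM. *lsy-22*, a Groucho-related gene, was the highest at 85.6 ± 3.69 FPKM, and *unc-37*, the Groucho homolog that hairy-type proteins recruit, had 48.3 ± 13.4 FPKM (SD, n = 2 for each). The SWI/SNF ATPase gene *swsn-4* was the lowest, at 5.20 FPKM in library 1 and 27.9 FPKM in library 2. *lsy-22* and *unc-37* were above the limit in both libraries, where the hairy and REF-1 family genes were at or near 0. Whether their products act together in these cells was not tested.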
